A study of Mus musculus with 28 samples.

Results

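The 5 T-box genes of paraxial mesoderm, *Tbx1*, *Tbx2*, *Tbx3*, *Tbx15* and *Tbx18*, were followed across sorted cells of the embryonic mouse vertebral column. They were taken as every probe that the platform annotation assigns to 1 of these symbols alone, which gave 11 of the 45281 probes on the array and 5 of its 19057 singly annotated genes. The cells came from dissected vertebral columns of E12.5 embryos of a hybrid 129Sv/C57BL/6/129X1/129S1 strain, labelled as intervertebral disc tissue, and were divided by fluorescence-activated sorting into EGFP(+) and EGFP(-) fractions. EGFP(+) cells were profiled from Pax1 WT:+/EGFP embryos (5 replicates), *Pax1*+/- (5), *Pax1*-/- (5), *Pax1*-/-*Pax9*+/- (3) and *Pax1*-/-*Pax9*-/- (3), and EGFP(-) cells formed a group of 3 replicates. In Pax1 WT:+/EGFP, EGFP is joined through a 2A peptide to an intact *Pax1*, whereas in the *Pax1*- and *Pax9*- alleles it interrupts the paired box, so every EGFP(+) group carries a reporter allele and in the compound mutants *Pax9* regulatory elements also drive it. The label of the EGFP(-) cells names no *Pax1* genotype. Each replicate held cells of 2 pooled vertebral columns.

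T-box factors bind DNA through a shared domain and either activate or repress transcription. In the vertebrate trunk, *Tbx18* is known for its expression in the anterior compartment of each somite, where it maintains the anterior identity that separates neighbouring segments, and *Tbx15* is its closest relative, known for skeletal and dermal development. *Tbx1* is best known from the pharyngeal arches and the outflow tract of the heart, and *Tbx2* and *Tbx3* are paired repressors of limb, body wall and cardiac mesenchyme. *Pax1* and *Pax9*, whose alleles define the genotypes, mark the ventral sclerotome, the somite derivative that forms vertebral bodies and intervertebral discs.

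The promoters of *Tbx1* and *Tbx18* are shown because windows were found for these 2 of the 5 members alone. Each window runs from 250 bases before to 50 after a RefSeq start (GRCm38.p6). Capitals mark the paired-domain core CGTGAC, searched on both strands.
Tbx1, chr16:18588850-18589149, minus strand: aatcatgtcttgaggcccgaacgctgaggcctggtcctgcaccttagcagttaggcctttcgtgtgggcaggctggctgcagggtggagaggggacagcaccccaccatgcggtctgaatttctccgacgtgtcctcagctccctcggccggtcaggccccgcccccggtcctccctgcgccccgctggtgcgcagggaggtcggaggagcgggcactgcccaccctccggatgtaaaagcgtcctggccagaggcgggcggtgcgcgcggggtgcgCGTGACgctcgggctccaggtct
Tbx18, chr9:87731211-87731510, minus strand: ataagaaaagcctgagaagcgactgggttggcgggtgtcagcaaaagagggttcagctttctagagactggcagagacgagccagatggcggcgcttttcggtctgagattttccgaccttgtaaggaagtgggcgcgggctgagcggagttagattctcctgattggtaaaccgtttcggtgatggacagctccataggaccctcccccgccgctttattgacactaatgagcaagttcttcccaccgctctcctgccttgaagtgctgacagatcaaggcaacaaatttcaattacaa
The core was matched once in the 3 windows of the members, at position 278 of this *Tbx1* window, and 8.22% of the 32851 windows of the same length held it. This window was 69% GC against a median of 52.7% over all windows, so that share is not matched for GC. The core of the T-box site, GTGTGA, was also searched on both strands, and it can share no more than 1 end base with the paired-domain core. It was present in neither window nor in the second *Tbx1* window at chr16:18590622-18590921, against 14.5% of all windows. A match is a description of these letters only.

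The 28 arrays lay on 5 chips of 2 chip-number series, one holding 17 arrays and the other 11, and each array detected between 42.2% and 50.64% of its probes. All 6 compound mutant arrays lay on chip 1, while all *Pax1*+/- and EGFP(-) arrays lay in the series that chip 1 does not belong to. *Pax1* was high in every EGFP(+) replicate, including *Pax1*-/- (10.84 to 11.07 on the log2 scale of normalized intensity), so its probes read the disrupted allele too and do not check that genotype. The *Pax9* probe read 4.73 and 4.77 in 2 libraries labelled *Pax1*-/-*Pax9*-/- and 6.85 in replicate 1 of that label, within the 6.58 to 6.94 of *Pax1*-/-*Pax9*+/-. This replicate thus read *Pax9* unlike the others of its label. Whether it is mislabelled or the probe reads the disrupted allele there was not tested. Where a call or a sign printed here changed without this replicate, the value without it is given. Among the EGFP(-) cells, *Pax1* was 8.57, 7.66 and 4.71 in replicates 1, 2 and 3. The markers of sclerotome transcription factors were higher in EGFP(+) cells than in EGFP(-) cells for 9 of 11 tested genes in each genotype, and those of erythroid cells lower for 7 of 8 in Pax1 WT:+/EGFP cells. The sclerotome markers include *Pax1*, whose locus drives the sorted EGFP, and *Pax9*. In arrays of sorted populations, fewer cells of a type and less RNA per cell cannot be told apart.

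**Figure D1:**
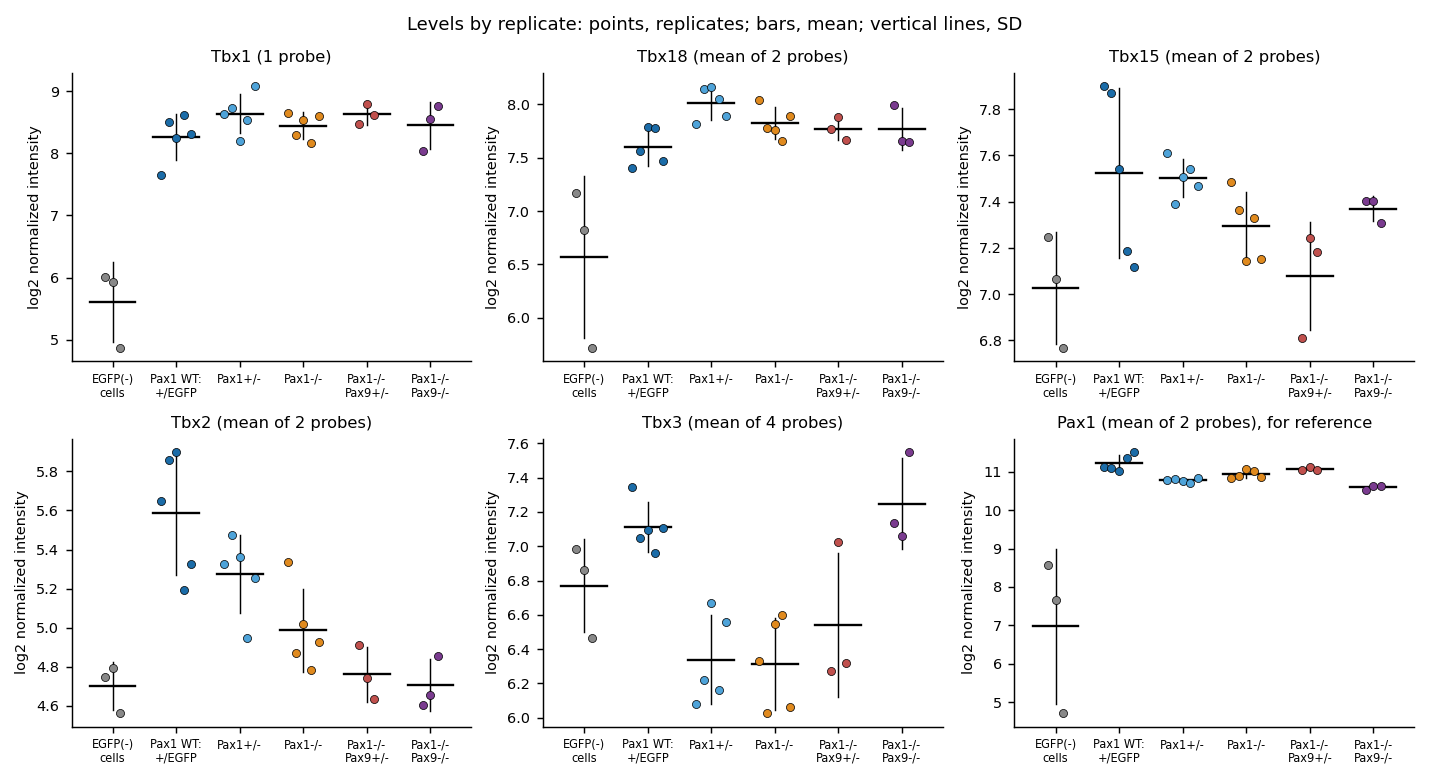
Log2 normalized intensity (y axis) of the 5 T-box genes and of *Pax1* in each replicate (points) of the 6 groups (x axis), with the group mean (bar) and SD (vertical line). *Tbx1* and *Tbx18* lie lowest in the EGFP(-) cells, and *Tbx3* is lowest in *Pax1*+/- and *Pax1*-/-. *Tbx2* has a mean of 5.59 in Pax1 WT:+/EGFP and of 4.71, at background, in *Pax1*-/-*Pax9*-/-.

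*Tbx1* was the member that separated the sorted fractions most widely. Its single probe, detected on 28 of 28 arrays, read 6.01, 5.93 and 4.86 in the 3 EGFP(-) replicates. In Pax1 WT:+/EGFP cells it read 7.65, 8.50, 8.25, 8.61 and 8.31. In *Pax1*+/- cells it read 8.64, 8.74, 8.21, 8.55 and 9.08. Every EGFP(+) replicate of the 3 genotypes compared lay above every EGFP(-) replicate, and the lowest of these EGFP(+) values was replicate 2 of Pax1 WT:+/EGFP. *Tbx1* was higher in EGFP(+) than EGFP(-) cells by 2.66 in Pax1 WT:+/EGFP (SE 0.255, 6.33-fold, limma adjusted p = 4.57e-07). The difference was 3.04 in *Pax1*+/- (SE 0.255, adjusted p = 7.93e-08) and 2.85 in *Pax1*-/- (SE 0.255, adjusted p = 2.27e-07). For every member the comparisons of fractions in the 3 genotypes use the same 3 EGFP(-) replicates, so they are not independent of each other. A call here means an adjusted p below 0.05 over 13373 genes and a change of at least 1.5-fold, and 16.4% of all genes were called in the Pax1 WT:+/EGFP contrast, 17.9% with *Pax1*+/- and 16.3% with *Pax1*-/-. Genes called higher made up 7.25%, 8.2% and 7.54%, against 3, 2 and 2 of the 5 members. The groups of 19.8%, 24.5% and 24.5% of all genes did not overlap, against 3, 4 and 2 members.

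Within the EGFP(+) cells no difference in *Tbx1* passed the test. The remaining values were 8.64, 8.29, 8.54, 8.16 and 8.61 in *Pax1*-/-, 8.47, 8.80 and 8.61 in *Pax1*-/-*Pax9*+/-, and 8.04, 8.55 and 8.76 in *Pax1*-/-*Pax9*-/-. By mean the order ran from *Pax1*+/- (8.64 ± 0.32, SD, n = 5) through *Pax1*-/-*Pax9*+/- (8.63), *Pax1*-/-*Pax9*-/- (8.45) and *Pax1*-/- (8.45) to Pax1 WT:+/EGFP (8.27 ± 0.37, SD, n = 5), and each neighbouring pair in this order overlapped. Without the library that reads *Pax9*, the mean of *Pax1*-/-*Pax9*-/- was 8.66, at the top of this order. The 95% interval of the difference from Pax1 WT:+/EGFP ran from -0.20 to 0.57 for *Pax1*-/- and from -0.26 to 0.63 for *Pax1*-/-*Pax9*-/-. The difference of *Pax1*-/-*Pax9*-/- from *Pax1*-/-*Pax9*+/- was -0.18 (95% interval -0.67 to 0.32, adjusted p = 0.965), and without that library it was 0.03 (adjusted p = 0.998), so it has no settled sign.

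*Tbx18* followed the same division at a smaller size. The mean of its 2 probes was 7.17, 6.82 and 5.72 in the EGFP(-) replicates. It was 7.40, 7.56, 7.78, 7.78 and 7.47 in Pax1 WT:+/EGFP cells, and 7.81, 8.14, 8.17, 8.05 and 7.89 in *Pax1*+/- cells. In none of the 3 genotypes did the EGFP(+) replicates overlap with these EGFP(-) replicates, which all 3 comparisons share. *Tbx18* was higher in EGFP(+) cells by 1.03 in Pax1 WT:+/EGFP (SE 0.224, 2.05-fold, adjusted p = 0.00238), by 1.44 in *Pax1*+/- (SE 0.224, adjusted p = 9.13e-05) and by 1.26 in *Pax1*-/- (SE 0.224, adjusted p = 4.36e-04). The bright probe ILMN_1246123 gave 1.33 in Pax1 WT:+/EGFP (adjusted p = 0.00249 over probes, of which 13.5% were called) and the dimmer ILMN_2484259 gave 0.73 (adjusted p = 0.0347), and the levels of the 2 probes correlated with r = 0.787 across the 24 replicates.

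The size of the *Tbx18* difference rested in part on EGFP(-) replicate 3, the replicate in which *Pax1* was lowest of the 3 (4.71). Without it the *Tbx18* difference was 0.61 in Pax1 WT:+/EGFP (adjusted p = 0.0108) and 0.83 in *Pax1*-/- (adjusted p = 0.00101), and the *Tbx1* difference in Pax1 WT:+/EGFP was 2.29 (adjusted p = 2.32e-06). EGFP(-) replicates 1 and 2, which read *Pax1* higher, also read *Tbx1* and *Tbx18* higher, and the part of residual *Pax1*-bearing cells in these values was not tested. Each of chips 3, 4 and 5 held 1 EGFP(-) array. Within them the *Tbx1* difference in Pax1 WT:+/EGFP was 2.44, 3.45 and 1.64 and that of *Tbx18* was 0.85, 2.17 and 0.23.

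Between genotypes *Tbx18* was called in no comparison. Its levels in *Pax1*-/- were 8.04, 7.78, 7.76, 7.66 and 7.89, and in the compound mutants they were 7.77, 7.88 and 7.67 with 1 *Pax9* copy and 7.99, 7.66 and 7.65 with none. *Pax1*+/- lay above Pax1 WT:+/EGFP with no overlap, by 0.41 (95% interval 0.18 to 0.64, adjusted p = 0.105), in a contrast where the groups of 2.43% of all genes did not overlap. The difference between *Pax1*-/-*Pax9*-/- and *Pax1*-/-*Pax9*+/- was -0.01 (95% interval -0.30 to 0.29).

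**Figure D2:**
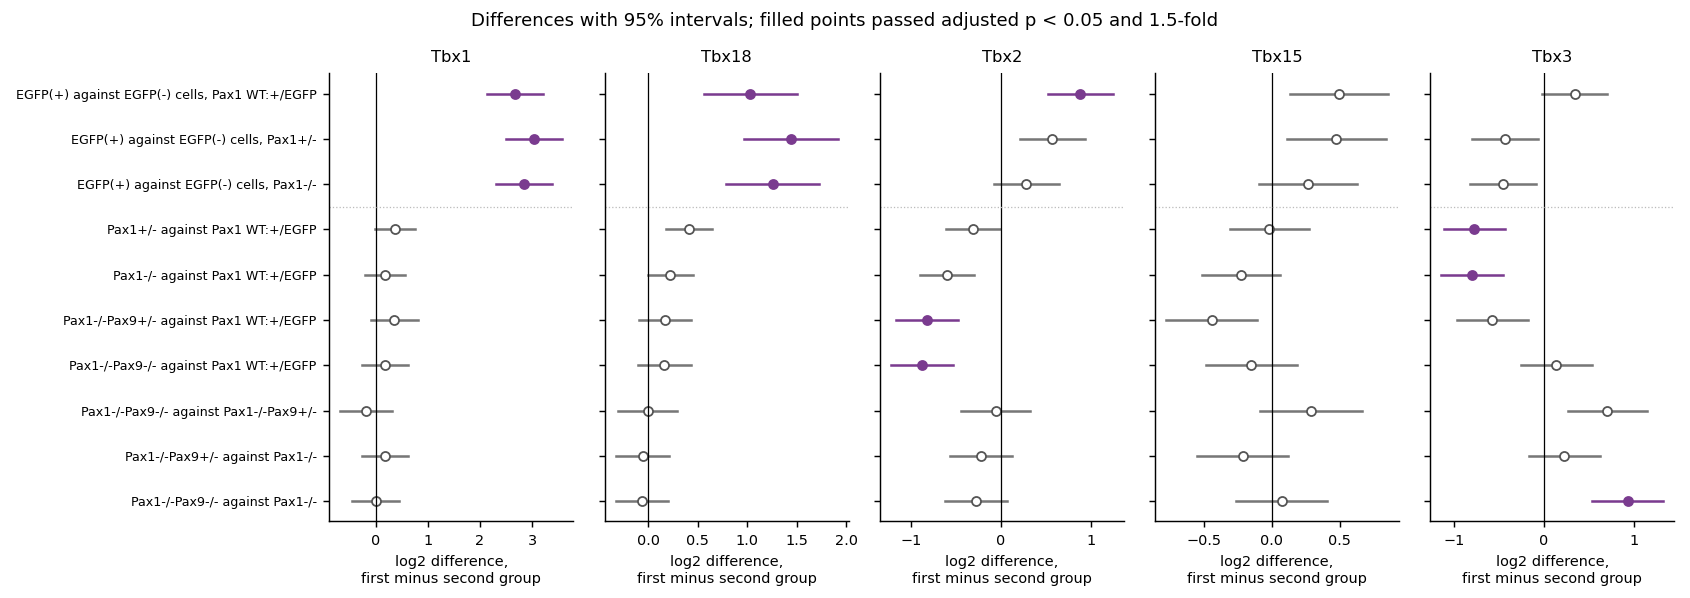
Log2 differences, first minus second group (x axis), of the 5 T-box genes in the 10 comparisons (y axis), with 95% intervals (lines). Filled points passed an adjusted p of 0.05 and a 1.5-fold change: *Tbx1* and *Tbx18* in all 3 comparisons of sorted fractions, *Tbx2* in 1 of those and in 2 between genotypes, and *Tbx3* in 3 between genotypes.

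*Tbx15* differed little between any groups. Its bright probe ILMN_1249994 was detected on 28 of 28 arrays and its second probe ILMN_2687794 on 13 of 28, and the 2 correlated weakly (r = 0.306, n = 24). The mean of both was 7.03 ± 0.24 (SD, n = 3) in EGFP(-) cells and 7.52 ± 0.37 (SD, n = 5) in Pax1 WT:+/EGFP. The difference of 0.49 (SE 0.173, adjusted p = 0.0499) was 1.41-fold and stayed under the fold threshold. It was 0.48 in *Pax1*+/- (SE 0.173, adjusted p = 0.0554) and 0.27 in *Pax1*-/- (SE 0.173, adjusted p = 0.318).

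The Pax1 WT:+/EGFP values of *Tbx15* fell apart by replicate, with 7.90, 7.87 and 7.54 in replicates 2, 3 and 4 and 7.19 and 7.12 in replicates 5 and 7. Without replicate 7 of Pax1 WT:+/EGFP the difference between fractions was 0.60 (adjusted p = 0.015) and without EGFP(-) replicate 1 it was 0.61 (adjusted p = 0.0387), both past the call rule. A block for chip series also gave a call, at 0.61 (adjusted p = 0.00548). Without EGFP(-) replicate 1 *Tbx15* was also called in *Pax1*+/- (0.59, adjusted p = 0.0419). Between genotypes *Tbx15* was not called, and its lowest mean, 7.08 ± 0.23 (SD, n = 3) in *Pax1*-/-*Pax9*+/-, lay 0.44 below Pax1 WT:+/EGFP (95% interval -0.78 to -0.11, adjusted p = 0.101). The bright probe was 0.41 higher in *Pax1*-/-*Pax9*-/- than in *Pax1*-/- with no overlap (adjusted p = 0.0778 over probes; 0.42 and adjusted p = 0.14 without the library that reads *Pax9*), while the second probe was not detected on any compound mutant array.

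*Tbx2*, a repressor whose known targets include the cell cycle inhibitor *Cdkn1a*, was read by probes near background. Its probes ILMN_2585774 and ILMN_2773918 were detected on 14 and 12 of 28 arrays. Neither was detected on any EGFP(-), *Pax1*-/-*Pax9*+/- or *Pax1*-/-*Pax9*-/- array, whereas each was detected on 5 of 6 arrays of Pax1 WT:+/EGFP and 4 of 5 of *Pax1*+/-. *Tbx2* therefore passed the filter through the groups in which it was brighter. The mean of the 2 probes was 4.75, 4.80 and 4.56 in EGFP(-) cells. It was 5.65, 5.86, 5.90, 5.19 and 5.32 in Pax1 WT:+/EGFP cells, and 5.33, 5.48, 5.36, 4.95 and 5.26 in *Pax1*+/- cells.

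All Pax1 WT:+/EGFP and *Pax1*+/- replicates lay above all EGFP(-) replicates. The Pax1 WT:+/EGFP cells were higher than EGFP(-) cells by 0.88 in measured values (SE 0.173, adjusted p = 9.62e-04). The EGFP(-) group was not above background, so the fold is given as a bound: at least 1.61-fold, from the mean log2 value of the brighter group against, on each dim array, the higher of the lowest detected signal and the probe's own. In *Pax1*+/- the difference was 0.57 (adjusted p = 0.0218, at least 1.3-fold), under the fold threshold; without *Pax1*+/- replicate 4 it was 0.65 (adjusted p = 0.0121), and without EGFP(-) replicate 1 or 2 it was 0.60 (adjusted p = 0.0465) or 0.62 (adjusted p = 0.0385), past the rule in each case. In *Pax1*-/- it was 0.28 (SE 0.173, adjusted p = 0.282).

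Across the EGFP(+) genotypes the mean of *Tbx2* was 5.59 in Pax1 WT:+/EGFP, 5.27 in *Pax1*+/-, 4.99 in *Pax1*-/-, 4.76 in *Pax1*-/-*Pax9*+/- and 4.71 in *Pax1*-/-*Pax9*-/-, with each neighbouring pair overlapping. The 2 probes were detected on 5 and 3 of 8 *Pax1*-/- arrays and on no compound mutant array. The compound mutant means were therefore at background, and no fold between *Pax1*-/- and either of them could be bounded. The *Pax1*-/- replicates read 5.34, 4.87, 5.02, 4.78 and 4.93. *Pax1*-/-*Pax9*+/- read 4.91, 4.74 and 4.63, and *Pax1*-/-*Pax9*-/- read 4.61, 4.65 and 4.86. All 6 compound mutant replicates lay below all 5 Pax1 WT:+/EGFP replicates, and *Pax1*-/- overlapped with both.

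*Tbx2* was lower than in Pax1 WT:+/EGFP by 0.82 in *Pax1*-/-*Pax9*+/- (SE 0.165, adjusted p = 0.00889, at least 1.41-fold) and by 0.88 in *Pax1*-/-*Pax9*-/- (SE 0.165, adjusted p = 0.00319, at least 1.41-fold). In these contrasts 4.76% and 7% of all genes were called, 2.28% and 3.62% as lower. Without the *Pax1*-/-*Pax9*-/- replicate that reads *Pax9*, the second difference was -0.83 (adjusted p = 0.0157). Without *Pax1*-/-*Pax9*+/- replicate 3 the first was -0.76 (adjusted p = 0.0515) and no longer called. In *Pax1*-/- the difference was -0.60 (SE 0.143, adjusted p = 0.094), and it was called without Pax1 WT:+/EGFP replicate 5 (-0.70, adjusted p = 0.0351).

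Both *Tbx2* calls were lost when the chip series was blocked or taken alone. All compound mutant arrays lay on chip 1, so genotype and chip cannot be told apart there. Blocking on the series, the differences were -0.49 (adjusted p = 0.293) and -0.55 (adjusted p = 0.0866), and within the series of the compound mutants alone they were -0.40 (adjusted p = 0.59) and -0.46 (adjusted p = 0.351). In all 4 pairs of arrays that share a group and a replicate name but lie on chip 2 and on a chip of the other series, *Tbx2* read lower on chip 2: 4.54 against 5.02, 4.75 against 4.99 and 4.98 against 5.05 in *Pax1*-/-, and 5.00 against 5.39 in Pax1 WT:+/EGFP. The sources used here do not state if such pairs are rescans, repeated hybridizations or separate pools, and the part of the chip series in the *Tbx2* differences was not tested further. The direction remained lower in each of the 23 alternatives run for either comparison.

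**Figure D3:**
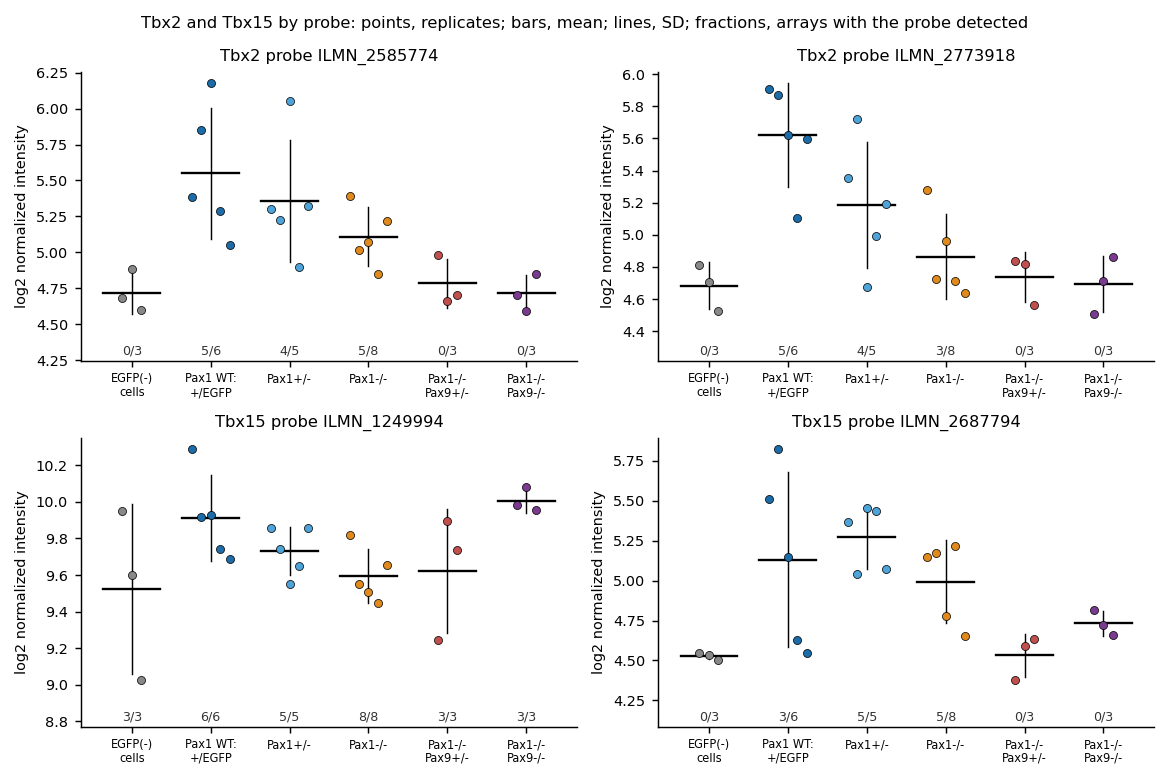
Log2 normalized intensity (y axis) by replicate (points), with mean (bar) and SD (line), for the 2 probes of *Tbx2* and the 2 of *Tbx15* in the 6 groups (x axis), and beneath each group the number of its arrays on which the probe was detected. Both *Tbx2* probes and the dimmer *Tbx15* probe were detected on 0 of 3 arrays in the EGFP(-) group and in each compound mutant.

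*Tbx3*, the closest relative of *Tbx2* and a repressor of the same kind, did not separate the sorted fractions but varied between genotypes. Of its 4 probes, ILMN_1247220 and ILMN_3139514 were detected on 28 of 28 arrays and correlated with r = 0.919 (n = 24), whereas ILMN_1228778 was detected on 7 and ILMN_3061990 on 9. The mean of the 4 was 6.98, 6.86 and 6.46 in EGFP(-) cells. It was 7.35, 7.05, 7.10, 6.96 and 7.11 in Pax1 WT:+/EGFP cells. The EGFP(-) level lay between those of the genotypes, and the difference of EGFP(+) from EGFP(-) cells was 0.34 in Pax1 WT:+/EGFP (95% interval -0.02 to 0.71, adjusted p = 0.187), -0.43 in *Pax1*+/- (95% interval -0.80 to -0.07, adjusted p = 0.0857) and -0.46 in *Pax1*-/- (95% interval -0.82 to -0.09, adjusted p = 0.0726). Without EGFP(-) replicate 3 the *Pax1*-/- difference was called (-0.61, adjusted p = 0.034).

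*Tbx3* was lower in *Pax1*+/- and in *Pax1*-/- than in Pax1 WT:+/EGFP. The compound mutants, which also lack *Pax1*, were not called against it. The 4-probe mean was 6.08, 6.22, 6.67, 6.16 and 6.56 in *Pax1*+/- and 6.33, 6.03, 6.55, 6.60 and 6.06 in *Pax1*-/-. All 10 of these replicates lay below all 5 Pax1 WT:+/EGFP replicates. The difference was -0.77 in *Pax1*+/- (SE 0.164, 1.71-fold, adjusted p = 0.0363), where 0.419% of all genes were called and 0.224% called lower, and -0.80 in *Pax1*-/- (SE 0.164, 1.74-fold, adjusted p = 0.0406), where 0.224% were called and 0.0897% called lower. The groups of 2.43% and 1.93% of all genes did not overlap. The 2 comparisons share their Pax1 WT:+/EGFP samples.

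The bright probes carried larger differences with wider errors. ILMN_1247220 read 9.82, 9.23, 9.42, 9.18 and 9.62 in Pax1 WT:+/EGFP, 7.89, 8.27, 9.02, 7.84 and 8.69 in *Pax1*+/-, and 8.58, 7.85, 8.62, 8.86 and 8.03 in *Pax1*-/-. Its differences were -1.11 (SE 0.285, 2.16-fold, adjusted p = 0.108 over probes) and -1.06 (SE 0.285, 2.09-fold, adjusted p = 0.22). ILMN_3139514 gave -1.11 (SE 0.316, adjusted p = 0.146) and -1.13 (SE 0.316, adjusted p = 0.246). For both probes the groups did not overlap, and neither probe passed the test on its own.

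These *Tbx3* calls lay near the threshold. In *Pax1*+/- the call was lost when any 1 replicate was left out other than *Pax1*+/- replicate 3 (adjusted p = 0.0263) or Pax1 WT:+/EGFP replicate 5 (adjusted p = 0.0334). The adjusted p for the other 8 omissions lay between 0.051 and 0.0957, and the difference over all 10 between -0.86 and -0.71. In *Pax1*-/- it held without *Pax1*-/- replicate 3 (adjusted p = 0.0449), *Pax1*-/- replicate 4 (adjusted p = 0.0455) or Pax1 WT:+/EGFP replicate 5 (adjusted p = 0.0436), and was lost in the other 7, with differences from -0.87 to -0.73. Blocking on chip series, the difference was -0.70 in *Pax1*+/- (adjusted p = 0.118) and -0.75 in *Pax1*-/- (adjusted p = 0.0128). Within single chips it was -0.40, -0.37 and -1.20 on chips 3, 4 and 5 in *Pax1*+/-, and between -0.41 and -1.02 on 4 chips in *Pax1*-/-.

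*Tbx3* was higher in *Pax1*-/-*Pax9*-/- than in *Pax1*-/-, whereas *Pax1*-/-*Pax9*+/- did not pass the test against *Pax1*-/-. *Pax1*-/-*Pax9*-/- read 7.13, 7.06 and 7.55, all 3 above all 5 *Pax1*-/- replicates, and *Pax1*-/-*Pax9*+/- read 6.27, 7.03 and 6.32, with replicate 2 alone near the *Pax1*-/-*Pax9*-/- values. *Tbx3* was higher in *Pax1*-/-*Pax9*-/- than in *Pax1*-/- by 0.94 (SE 0.189, 1.91-fold, adjusted p = 0.00353), in a contrast with 9.68% of all genes called, 4.52% called higher and 24.3% with groups that did not overlap. ILMN_1247220 rose by 1.20 (SE 0.33, adjusted p = 0.0211) and ILMN_3139514 by 1.61 (SE 0.365, 3.06-fold, adjusted p = 0.00807), with 10.8% of probes called. Without the library that reads *Pax9* the gene's difference was 0.99 (adjusted p = 0.00938) and that of ILMN_3139514 1.61 (adjusted p = 0.0251), both called, while ILMN_1247220 was not called (1.21, adjusted p = 0.055). It was called in 21 of 23 alternatives. Within the chip series that holds the compound mutants it was 0.79 and not called (adjusted p = 0.141).

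Neither single step of *Pax9* loss passed the limma test for any member, in contrasts with 8.12% (first copy) and 0.314% (last copy) of all genes called. At an unadjusted p below 0.05 there was 1 member, *Tbx3* at the last copy. *Pax1*-/-*Pax9*+/- read 0.23 above *Pax1*-/- (95% interval -0.17 to 0.62, adjusted p = 0.473), and *Pax1*-/-*Pax9*-/- read 0.71 above *Pax1*-/-*Pax9*+/- (95% interval 0.27 to 1.15, adjusted p = 0.208), with no overlap, in a contrast where the groups of 15.3% of all genes did not overlap. Without the library that reads *Pax9* the latter was 0.77 (adjusted p = 0.221). The 2 steps differed by 0.48 (SE 0.354, adjusted p = 0.577). Against Pax1 WT:+/EGFP, *Pax1*-/-*Pax9*+/- differed by -0.57 (95% interval -0.97 to -0.18, adjusted p = 0.0734), which was called without *Pax1*-/-*Pax9*+/- replicate 2 (-0.82, adjusted p = 0.0367). *Pax1*-/-*Pax9*-/- did not differ detectably from Pax1 WT:+/EGFP (0.14, 95% interval -0.26 to 0.53, adjusted p = 0.692).

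**Figure D4:**
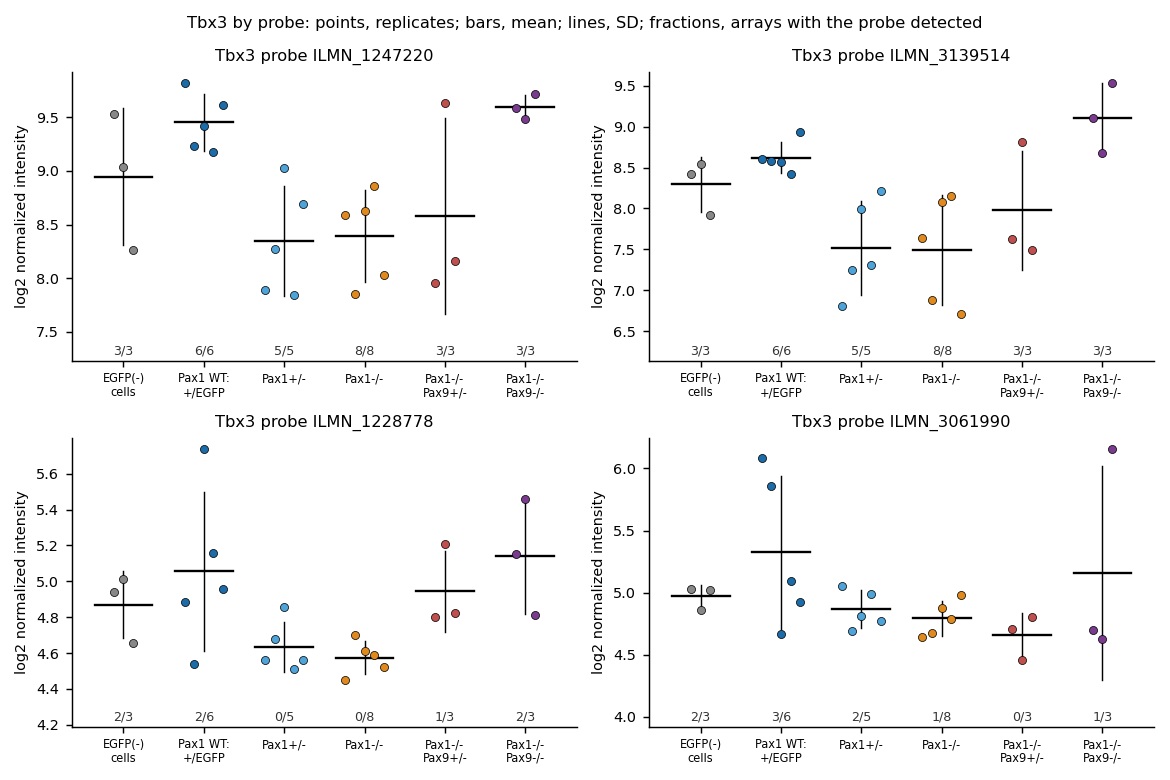
Log2 normalized intensity (y axis) by replicate (points), with mean (bar) and SD (line), for the 4 *Tbx3* probes in the 6 groups (x axis), and beneath each group the number of its arrays on which the probe was detected. In the bright probes ILMN_1247220 and ILMN_3139514 every *Pax1*+/- and *Pax1*-/- replicate lies below every Pax1 WT:+/EGFP and *Pax1*-/-*Pax9*-/- replicate.

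**Figure D5:**
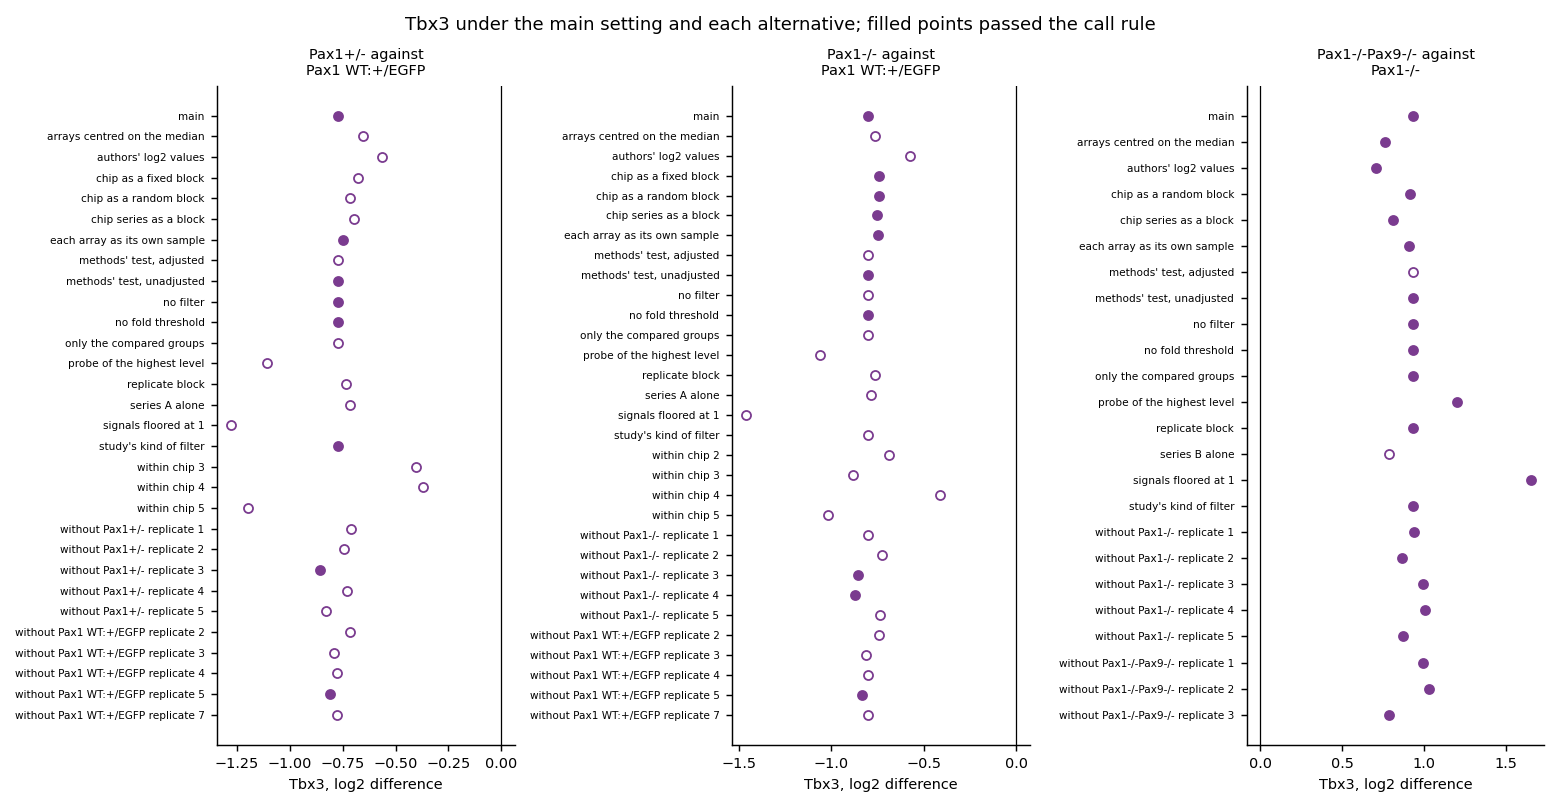
Log2 difference of *Tbx3* (x axis) in 3 comparisons (panels) under the reported setting, at the top, and each alternative (y axis); filled points passed the call rule. The difference is below 0 in every row of the first 2 panels, between -1.28 and -0.37 and between -1.47 and -0.41, and above 0 in every row of the third, between 0.71 and 1.65.

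Listed genes called in the same comparisons as *Tbx3* were read in the same arrays. *Osr2*, on the list of body wall and urogenital mesoderm, was lower in *Pax1*+/- (-0.79, SE 0.159, adjusted p = 0.0254) and *Pax1*-/- (-0.77, SE 0.159, adjusted p = 0.0422) than in Pax1 WT:+/EGFP and higher in *Pax1*-/-*Pax9*-/- than in *Pax1*-/- (0.60, SE 0.184, adjusted p = 0.0349). The last call was lost without the library that reads *Pax9* (0.43, adjusted p = 0.18). All *Pax1*-/-*Pax9*-/- arrays also lay on chip 1, which held no *Pax1*-/- array. The *Osr2* probes were detected on 6 and 6 of 6 arrays of Pax1 WT:+/EGFP, on 2 and 1 of 5 of *Pax1*+/- and on 2 and 4 of 8 of *Pax1*-/-, so the lower groups lay near background. *Osr2* was the called gene of 5 tested on that list in each of these comparisons. Pax1 WT:+/EGFP replicates had list means of 5.22 to 5.47, those of *Pax1*+/- 4.98 to 5.44, those of *Pax1*-/- 4.96 to 5.08 and those of *Pax1*-/-*Pax9*-/- 5.08 to 5.14. The epithelial cadherin *Cdh1* is not a cell type marker here but was listed with genes acting with or below *Tbx2* and *Tbx3*. It spread over 5.49 to 8.39 among Pax1 WT:+/EGFP replicates, 4.66 to 5.45 among *Pax1*+/- and 5.67 to 8.13 among *Pax1*-/-. *Cdh1* was lower in *Pax1*+/- than in Pax1 WT:+/EGFP (-2.50, SE 0.52, adjusted p = 0.0311), the 1 called gene of 9 tested on its list. In *Pax1*-/- it averaged 7.07 against 7.56 in Pax1 WT:+/EGFP and was not called. Among the markers of other cells, the list means of endothelium spanned 4.73 to 5.43 in Pax1 WT:+/EGFP, 4.68 to 5.58 in *Pax1*+/- and 5.33 to 6.07 in *Pax1*-/-. Skeletal muscle genes averaged 5.81 to 6.92, 5.61 to 6.17 and 6.24 to 7.13 in the same order of groups, and neural crest and glia genes 6.10 to 7.64, 5.36 to 7.61 and 6.91 to 8.08. The part of other cells in the *Tbx3* values was not tested.

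Genes known to act with or below the members were counted from fixed lists. Of 8 tested genes acting with or below *Tbx1*, 1 was higher and 2 lower in Pax1 WT:+/EGFP EGFP(+) cells than in EGFP(-) cells, with a list median of -0.16 against 0.06 over all genes. Of all genes, 7.25% were called higher and 1222 of 13373 lower in this contrast. The higher one was *Cyp26b1*, which degrades retinoic acid (1.71, SE 0.251, adjusted p = 5.96e-05), and the lower ones were the T-box corepressor *Ripply3* (-1.16, SE 0.268, adjusted p = 0.00394, detected on 2 of 6 Pax1 WT:+/EGFP arrays) and the lymphatic receptor *Flt4* (at least 2.1-fold, adjusted p = 0.00123, detected on 0 of 6 Pax1 WT:+/EGFP arrays). None of the 8 was called in *Pax1*+/- or *Pax1*-/- against Pax1 WT:+/EGFP. Against Pax1 WT:+/EGFP, 1 of the 8 was called in *Pax1*-/-*Pax9*+/- and 2 in *Pax1*-/-*Pax9*-/-, each higher, with 4.76% and 7% of all genes called. *Cyp26a1*, a relative of *Cyp26b1*, was higher in both (1.10, SE 0.197, adjusted p = 0.00533, and 1.09, SE 0.197, adjusted p = 0.0024). Without the library that reads *Pax9* the latter was 1.17 (adjusted p = 0.00632). In that fit *Cyp26b1* was also called higher (0.74, limma adjusted p = 0.0152). All compound mutant arrays lay on chip 1, so genotype and chip cannot be told apart in these values.

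Of 9 tested genes acting with or below *Tbx2* and *Tbx3*, 2 were higher and 1 lower in Pax1 WT:+/EGFP EGFP(+) cells, with a median of 0.07. The same shares of all genes, 7.25% higher and 1222 of 13373 lower, stand beside these counts. *Bmp4*, a secreted signal upstream of *Tbx2* and *Tbx3* in several tissues, rose by 1.17 (SE 0.156, adjusted p = 2.02e-05), and the corepressor gene *Tle1* by 0.86 (SE 0.139, adjusted p = 1.63e-04). *Cdkn1a* was lower (-0.83, SE 0.265, adjusted p = 0.0327). Its probes were detected on 3, 4 and 1 of 6 Pax1 WT:+/EGFP arrays, so this lower group lay near background. Against Pax1 WT:+/EGFP, *Bmp4* was lower in *Pax1*-/-*Pax9*+/- (-0.66, SE 0.131, adjusted p = 0.00889) and *Pax1*-/-*Pax9*-/- (-0.68, SE 0.131, adjusted p = 0.00375), and *Tle1* in *Pax1*-/-*Pax9*-/- (-0.84, SE 0.131, adjusted p = 6.9e-04). Without the library that reads *Pax9* the *Pax1*-/-*Pax9*-/- differences were -0.59 for *Bmp4* (adjusted p = 0.0234) and -0.81 for *Tle1* (adjusted p = 0.00513). Of the 9, 1 was called in *Pax1*-/-*Pax9*+/- and 2 in *Pax1*-/-*Pax9*-/-, each lower, with 4.76% and 7% of all genes called. The compound mutant arrays all lay on chip 1, so genotype and chip cannot be told apart here either.

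Genes of the anterior and posterior somite compartments, the setting in which *Tbx18* is best known, were also counted. In the Pax1 WT:+/EGFP contrast of fractions 16.4% of all genes were called, and 1222 of 13373 were called lower. Of 8 tested, 3 were called in Pax1 WT:+/EGFP, each lower, namely the Notch pathway genes *Dll3* (-3.80, SE 0.519, adjusted p = 2.64e-05), *Lfng* (-1.30, SE 0.191, adjusted p = 5.9e-05, detected on 1 of 6 Pax1 WT:+/EGFP arrays) and *Notch1* (-1.22, SE 0.239, adjusted p = 9.46e-04), with a list median of 0.06. *Epha4*, an Eph receptor of the anterior compartment, was higher in *Pax1*-/-*Pax9*-/- than in Pax1 WT:+/EGFP (0.80, SE 0.206, adjusted p = 0.0203), but not without the library that reads *Pax9* (0.66, adjusted p = 0.0912). In that comparison with all libraries, 1 of the 8 genes was called higher and 1 lower. *Notch1* averaged 5.70 in *Pax1*-/-*Pax9*-/- and 6.76 in Pax1 WT:+/EGFP. Without the library that reads *Pax9*, *Notch1* was called lower (-1.12, limma adjusted p = 0.0142). *Tcf15*, a factor of somite epithelium, was lower in *Pax1*-/-*Pax9*+/- than in Pax1 WT:+/EGFP (-1.30, SE 0.368, adjusted p = 0.0399), the 1 gene of the list called there. Against Pax1 WT:+/EGFP, 4.76% of all genes were called in *Pax1*-/-*Pax9*+/- and 7% in *Pax1*-/-*Pax9*-/-. Genotype and chip cannot be told apart in these compound mutant values, since all their arrays lay on chip 1.

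Of 12 other T-box genes listed, 11 had a probe and 4 passed the filter, *Tbx6*, *Tbx20*, *Tbx22* and *Mga*. None was called by limma in any of the 10 comparisons, and 3 of the 40 tests had an unadjusted p below 0.05. *Mga* was detected on 12 and 20 of 28 arrays by its 2 probes, and its group means lay between 5.01 and 5.36. *Tbx20* was detected on 4 of 28 arrays by each of its 2 probes, and its mean ran from 4.42 in Pax1 WT:+/EGFP to 5.02 in *Pax1*-/-*Pax9*-/-.

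The levels of the members ran together only in part. Across the 24 replicates *Tbx1* and *Tbx18* correlated with r = 0.883, but within the 21 EGFP(+) replicates with r = 0.323, since the 3 EGFP(-) replicates hold most of the spread. *Tbx2* and *Tbx15* correlated with r = 0.647 and 0.586 respectively, and *Tbx3* with *Tbx18* with r = -0.16 and -0.49. These points share chips and control samples and are given as a description.

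The genes whose levels were most like each member across the 24 replicates were, for *Tbx1* and *Tbx18*, also lowest in EGFP(-) cells. For *Tbx1* they were the chemokine gene *Cxcl12* (r = 0.965), the matrix protease gene *Mmp2* (r = 0.957) and *Fblim1* (r = 0.944). *Cxcl12* averaged 7.54 in EGFP(-) cells and between 9.28 and 9.48 in the EGFP(+) groups. For *Tbx18* they were the tropomyosin gene *Tpm1* (r = 0.94), *Vsig10l* (r = 0.933) and the forkhead gene *Foxd1* (r = 0.924).

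For the other members the likeness was lower. *Tbx2* was most like *Greb1* (r = 0.812), *Zfpl1* (r = 0.811) and *Bmp4* (r = 0.78), and *Greb1* averaged 6.11 in Pax1 WT:+/EGFP, 5.28 in *Pax1*-/-*Pax9*+/- and 4.65 in *Pax1*-/-*Pax9*-/-. *Tbx15* was most like the laminin gene *Lamb1* (r = 0.841), the collagen gene *Col1a2* (r = 0.821) and *Maged2* (r = 0.805). *Tbx3* was most like the chemokine gene *Cxcl14* (r = 0.768), *Leprot* (r = 0.737) and the homeobox gene *Emx2* (r = 0.731). *Emx2* averaged 8.65 in EGFP(-) cells, 8.41 in Pax1 WT:+/EGFP, 7.64 in *Pax1*+/-, 7.32 in *Pax1*-/-, 7.31 in *Pax1*-/-*Pax9*+/- and 8.63 in *Pax1*-/-*Pax9*-/-. Over the 21 EGFP(+) replicates *Cxcl14* (r = 0.82) and *Leprot* (r = 0.789) again led for *Tbx3* and *Lamb1* (r = 0.805) for *Tbx15*, whereas the leading genes for *Tbx1*, *Tbx2* and *Tbx18* were *Ccdc127* (r = 0.786), *Pih1d2* (r = 0.844) and *Capn10* (r = 0.766).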

How the data were processed

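Gene expression was measured on Illumina MouseWG-6 BeadChips (28 arrays of amplified RNA from sorted cells, 1 colour). The authors deposited background-subtracted, non-normalized intensity per probe with a detection p-value, exported from BeadStudio, and a table of log2 values that they had quantile normalized in GeneSpring. Intensities were corrected with limma 3.58.1 in R 4.3.3 (normexp from the deposited detection p-values, offset 16), quantile normalized and log2 transformed. Probes with a detection p-value below 0.05 on at least 3 arrays were kept (27688, of which 22486 had 1 gene) and averaged to 13373 genes. Of all probes, 34885 had 1 symbol, 18 several and 10378 none.

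Arrays of 1 group and replicate name were averaged, giving 24 replicates, although the sources used here do not say whether they share an extract. Sorted fractions were compared in 1 limma fit (4 groups) and EGFP(+) genotypes in another (5 groups), with Benjamini-Hochberg adjustment over all genes, or over all probes where stated. The study removed outliers that its methods do not name, and all arrays were kept here. The sorting text of all samples names GFP(+) cells, and the titles and genotypes were followed for the EGFP(-) samples. Replicates are separate pools per the methods. Precision is limited by how many arrays there are.

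The members and lists were chosen with earlier results of these data known. Named genes are the members, other T-box genes that passed the filter, the 3 genes most correlated with each member over all and over EGFP(+) replicates, *Pax1*, *Pax9*, and up to 3 called genes of a list with the smallest adjusted p. Scripts were tested on simulated data. Alternatives covered background, scaling, filter, probe choice, chips, the replicate block, the methods' tests and each replicate left out; a fixed chip block and chip 1 alone were added after seeing the data. Levels of different probes or genes were not tested against each other. Named list genes and member probes were also fitted without *Pax1*-/-*Pax9*-/- replicate 1, likewise after seeing the data.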

Additional observations from a re-analysis of the deposited data

Results flagged for a closer look

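The *Tbx18* probe ILMN_1246123 read 9.94 in *Pax1*-/- replicate 1, apart from the other 4 replicates of that genotype, which lay between 9.43 and 9.57. Of 48 groups of 5 replicates examined for such a gap, this was the 1 past the limit, and chance alone flags about 1 group in 20.

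The difference of *Tbx3* between EGFP(+) and EGFP(-) cells was itself different between *Pax1*+/- and Pax1 WT:+/EGFP (difference of -0.77, SE 0.15, limma adjusted p = 0.0395), and 24 genes (0.179%) passed this test. Both differences use the same EGFP(-) replicates, so the value equals the *Pax1*+/- difference from Pax1 WT:+/EGFP given above. For *Pax1*-/- the same test gave -0.80 (SE 0.15, adjusted p = 0.0635).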

How the results depend on the processing

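None of the member differences that were called changed sign under any alternative. *Tbx1* was called higher in EGFP(+) cells in 25, 24 and 25 of 26 alternatives in Pax1 WT:+/EGFP, *Pax1*+/- and *Pax1*-/-, and *Tbx18* in 22 of 26 in each.

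The number of members called moved as follows. Between sorted fractions, the methods' test after Benjamini-Hochberg adjustment called 0 in each of the 3 genotypes, and before adjustment 1 in *Pax1*+/- and 1 in *Pax1*-/-. Within chips 3 and 5, 1 was called in each genotype except *Pax1*+/- within chip 3, with 0. Each of these chips holds 1 EGFP(-) array, assumed to vary like the others, so these counts reflect the smaller design. Signals floored at 1 gave 5 in *Pax1*+/-, and leaving out single replicates there gave 2 to 4.

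In *Pax1*+/- against Pax1 WT:+/EGFP, 0 members were called with signals floored at 1, arrays centred on the median, the deposited log2 values, the probe of the highest level, chip as a random or fixed block, the chip series as a block, only the compared groups, the methods' adjusted test, one chip series alone or within chips 3, 4 and 5, and 0 to 1 when a replicate was left out. In *Pax1*-/- the same held for the floor, the centring, the deposited values, the probe choice, only the compared groups, the methods' adjusted test, one series alone and within chips 2 to 5, and also with no filter or the study's kind of filter (0 each). Within single chips no gene of 13373 was called by limma in either comparison, so these counts follow from the design. For that genotype the methods' unadjusted test called 2, *Tbx2* and *Tbx3*, and leaving out a replicate gave 0 to 2.

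In *Pax1*-/-*Pax9*+/- against Pax1 WT:+/EGFP, 0 were called with the deposited log2 values, the probe of the highest level, a random chip block, a block for chip series, only the compared groups, the methods' adjusted test and one series alone, and 0 to 2 without a replicate. In *Pax1*-/-*Pax9*-/- against Pax1 WT:+/EGFP it was 0 with the deposited values, the chip series as a block, only the compared groups, the methods' adjusted test and one series alone. Against *Pax1*-/- it was 0 with the methods' adjusted test and one series alone. With the chip series as a block, all genes called against Pax1 WT:+/EGFP fell from 636 to 21 in *Pax1*-/-*Pax9*+/- and from 936 to 224 in *Pax1*-/-*Pax9*-/-. The causes were not tested.

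Replicate numbers did not pair the samples: correlations of deviations between same-numbered samples lay between -0.183 and 0.144, and 4 of 24 samples correlated best with their own number. With the replicate block, 0 members were called in *Pax1*+/- (*Tbx3* adjusted p = 0.149) and 0 in *Pax1*-/- (*Tbx3* adjusted p = 0.158) against Pax1 WT:+/EGFP, and 2 in *Pax1*-/-*Pax9*+/- (*Tbx2* and *Tbx15*). All genes called under this block fell from 56 to 16 and from 30 to 11 in the first 2, and rose from 636 to 1228 in the third and from 936 to 1430 in *Pax1*-/-*Pax9*-/- against Pax1 WT:+/EGFP.

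Over the other alternatives the number of all genes called ranged from 352 to 2741, 225 to 2990 and 484 to 2708 in the 3 comparisons of fractions (2192, 2389 and 2177 as reported), from 0 to 251 and 0 to 227 in *Pax1*+/- and *Pax1*-/- against Pax1 WT:+/EGFP, from 0 to 1320 and 0 to 1570 in the compound mutants against it, from 0 to 284 between them (42 as reported), and from 1 to 1545 and 107 to 1884 in the compound mutants against *Pax1*-/- (1086 and 1294 as reported). Centring arrays on the median shifted the median of all genes to 0.13 in *Pax1*+/- against Pax1 WT:+/EGFP and to -0.14 in *Pax1*-/-*Pax9*-/- against *Pax1*-/-, where *Tbx3* differed by -0.65 and 0.76. *Tbx2*, *Osr2*, *Ripply3*, *Flt4*, *Lfng*, *Cdkn1a* and the dim probes of *Tbx3* and *Tbx15* lay near background, which limits their folds.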
